A study of Mus musculus with 6 samples.

Results

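Sipa1, Rrp1b, Cadm1, Cnot2, Arhgdib, Nme1, Brms1, Cd82 and Ndn are 9 mouse genes known as inherited modifiers or suppressors of metastasis. They were taken by symbol, as every non-control probe set whose platform annotation gives exactly 1 gene symbol and that symbol is one of the 9. This gave 27 probe sets of 22626 on the array, and 9 genes of 12393 with such a probe set. The tumours came from adult F1 females of 2 outcrosses, written in the labels as (AKR/J x PyMT)F1 and (DBA/2J x PyMT)F1, with 3 samples of each. Every tumour carried PyMT, a transgene for the middle T antigen of polyomavirus, and the crosses differed in the inbred parent, AKR/J in the AKR F1 tumours (here AKR tumours) and DBA/2J in the DBA F1 tumours (here DBA tumours). The promoter that drives the transgene, the strain of the PyMT parent and the ages are not given in the sources used here. The labels do not say that the samples came from separate animals, and the p-values below cover only the spread among the samples as deposited.

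Metastasis modifiers are genes whose inherited or acquired differences alter how readily a primary tumour seeds other organs, and metastasis suppressors are genes whose restored expression limits that spread without stopping growth of the primary tumour. The PyMT mouse develops mammary tumours that spread to the lung, and how often they do so depends on the inbred strain it is crossed to. In published crosses AKR/J offspring had more lung metastases than DBA/2J offspring. Metastasis was not measured in these files, and the comparison here asks whether the array signal of these genes differed between primary tumours of the crosses. Whether strain differences in the sequence under the probes changed a signal was not tested, so a difference in signal need not be one in RNA level.

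No member passed the test. By limma with Benjamini-Hochberg adjustment over all 22626 probe sets, 0 of 27 member probe sets had an adjusted p under 0.05, where the share over all probe sets was 0.0972% (22 probe sets). At an unadjusted p under 0.05 there were 8 of 27, against 26.1% of all probe sets. The 3 AKR values and the 3 DBA values did not overlap in 8 of 27, against 39.2% of all probe sets. Of the 27, 15 had a lower mean in AKR tumours, as did 45.4% of all probe sets. The median log2 difference, AKR minus DBA, was -0.07 over the members and 0.05 over all probe sets, and the median absolute difference was 0.27 over the members and 0.28 over all. The largest differences belonged to Cnot2, a subunit of an RNA decay complex, and Arhgdib, an inhibitor of small GTPases, both with lower values in AKR tumours. Sipa1 had nearly the same signal in both crosses.

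**Figure D1:**
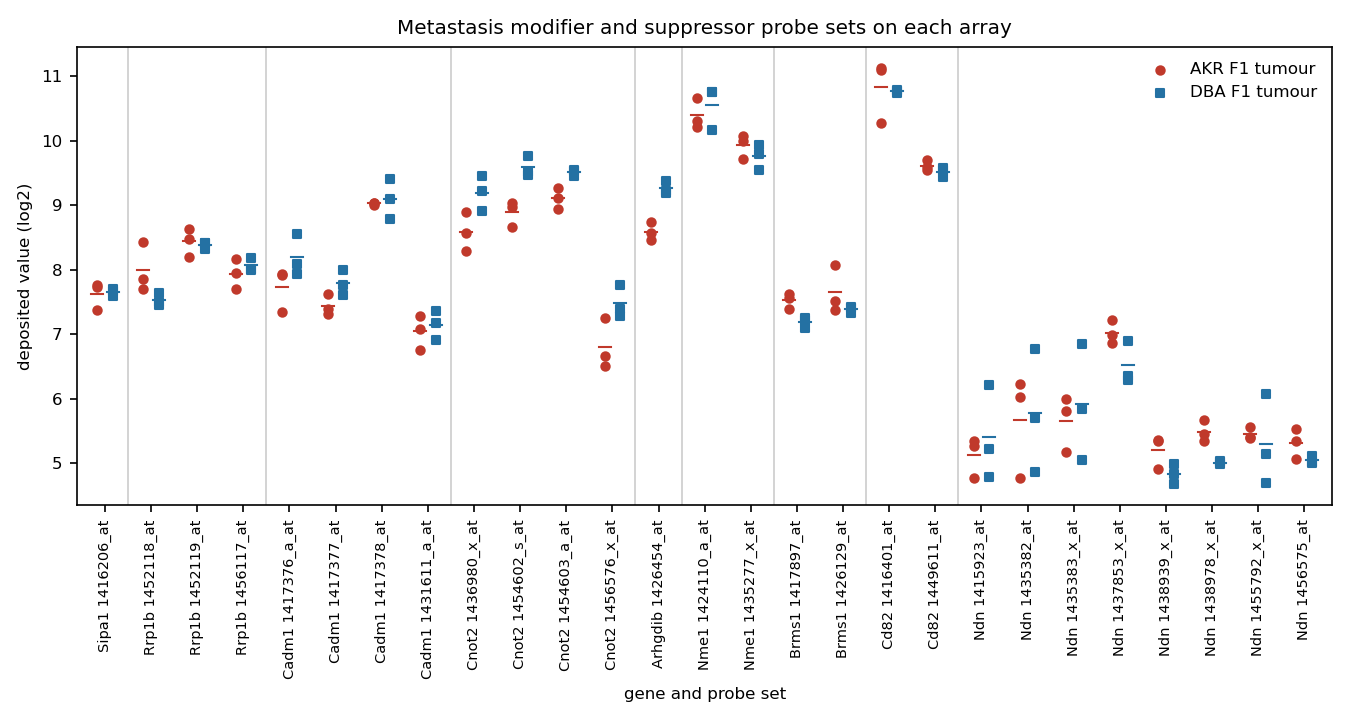
Deposited log2 values (y axis) of the 27 probe sets (x axis, grouped by gene) on each array, with AKR tumours as circles, DBA tumours as squares and a short line at the mean of 3 arrays. The AKR circles of all 4 Cnot2 probe sets and of Arhgdib lie below the DBA squares, and most Ndn probe sets lie near the bottom of the scale.

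Array medians ran from 7.55 to 7.57 in AKR and from 7.52 to 7.55 in DBA tumours, on a log2 scale that spanned 3.65 to 14.73. The SD over probe sets was 1.76 on AKR replicate 2 and 1.9 to 2.02 on the other arrays. AKR replicate 2 correlated with the DBA arrays at a Pearson r of 0.915 to 0.930, and AKR replicates 1 and 3 at 0.963 to 0.978. The difference between crosses depended on brightness: its median was 0.23 in decile 2 of mean level, 0.02 in decile 6 and -0.21 in deciles 9 and 10. Mammary epithelial markers were bright on every array, with a list mean of 11.44 to 12.08 in AKR and 11.03 to 11.89 in DBA tumours. Arrays also differed in other tissues. Skeletal muscle markers averaged 8.57, 8.39 and 9.66 in AKR and 11.51, 6.48 and 6.39 in DBA tumours, and adipocyte markers averaged 6.99, 7.03 and 6.89 in AKR and 8.61, 6.22 and 6.67 in DBA tumours (12 of 12 and 6 of 8 listed genes measured). The mean of the salivary gland markers was highest on AKR replicate 2, at 11.19 (10 of 12 listed genes measured), though not every gene of the list was highest there. Some differences are also given without one of these arrays.

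Sipa1 encodes a GTPase-activating protein that switches off the small GTPase RAP1, and inherited variation in it is tied to metastasis in mouse crosses. Its 1 probe set, 1416206_at, lay near the middle of the array's range. Sipa1 read 7.76, 7.38 and 7.73 in AKR and 7.70, 7.67 and 7.60 in DBA tumours. The DBA values fell inside the AKR range. The log2 difference was -0.03 with a 95% confidence interval from -0.37 to 0.30 (adjusted p = 0.884 by limma). The sign turned without AKR replicate 2, where the difference was 0.09. The interval therefore holds differences of either sign, none larger than 0.37 in size.

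Rrp1b encodes a nucleolar protein that binds SIPA1, and its variants are tied to metastasis in mice and in human breast cancer. Its 3 probe sets disagreed in sign. The probe set 1452118_at read 7.86, 8.43 and 7.71 in AKR and 7.50, 7.64 and 7.45 in DBA tumours, with no overlap. That log2 difference was 0.47 (95% confidence interval -0.01 to 0.95, adjusted p = 0.197 by limma), and it was 0.25 without AKR replicate 2, the highest array. The brightest Rrp1b probe set, 1452119_at, read 8.48, 8.64 and 8.20 in AKR and 8.41, 8.41 and 8.33 in DBA tumours, a difference of 0.06. The remaining one, 1456117_at, read 8.16, 7.71 and 7.95 in AKR and 8.02, 8.0 and 8.19 in DBA tumours, a difference of -0.13. At both, the crosses overlapped, and AKR replicate 2 stood at the top of one and at the bottom of the other. Without it the differences were -0.05 at 1452119_at and -0.02 at 1456117_at. The mean of the 3 probe sets differed by 0.13.

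Cadm1 encodes an immunoglobulin-like adhesion molecule of epithelial cells, known as a tumour suppressor in human lung cancer and as a modifier of metastasis in mice. All 4 of its probe sets had lower means in AKR tumours and none passed. The brightest, 1417378_at, read 9.03, 9.01 and 9.04 in AKR and 8.79, 9.41 and 9.10 in DBA tumours. The AKR arrays were nearly equal, and the DBA arrays spread to both sides of them. The log2 differences were -0.07 at that probe set, -0.46 at 1417376_a_at, -0.35 at 1417377_at and -0.10 at 1431611_a_at. The adjusted p ranged from 0.195 to 0.784 by limma. Of these, 1417376_a_at read 7.92, 7.35 and 7.94 in AKR and 7.94, 8.56 and 8.09 in DBA tumours, so the lowest value was AKR replicate 2 and the highest DBA replicate 2. Its difference was -0.26 without AKR replicate 2, -0.28 without DBA replicate 2 and -0.23 with arrays weighted by their estimated precision. The probe set 1417377_at read 7.31, 7.39 and 7.62 in AKR and 7.61, 7.77 and 8.0 in DBA tumours, with only the extreme arrays of each cross touching.

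Cnot2 encodes a scaffold subunit of CCR4-NOT, the complex that shortens poly(A) tails and starts mRNA decay. At all 4 of its probe sets the AKR values lay wholly below the DBA values, an arrangement found in 15.8% of all probe sets. The probe set 1454602_s_at read 8.97, 8.66 and 9.04 in AKR and 9.47, 9.52 and 9.77 in DBA tumours. It averaged 8.89 ± 0.20 in AKR and 9.59 ± 0.16 in DBA tumours (SD, n = 3 each). The log2 difference was -0.70 (95% confidence interval -1.06 to -0.34, adjusted p = 0.0934 by limma), a 1.62-fold higher signal in DBA. Among all probe sets 9.4% had a larger absolute difference.

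The brightest Cnot2 probe set, 1454603_a_at, read 9.27, 8.95 and 9.12 in AKR and 9.54, 9.53 and 9.45 in DBA tumours. Its difference was the smallest of the 4, at -0.39 (adjusted p = 0.14 by limma). The probe set 1436980_x_at read 8.57, 8.29 and 8.89 in AKR and 9.22, 8.91 and 9.45 in DBA tumours, a difference of -0.61, and the dimmer 1456576_x_at differed by -0.67. At 1456576_x_at the AKR values of 6.66, 6.51 and 7.26 nearly touched the DBA values of 7.39, 7.28 and 7.76. The suffixes _s_at and _x_at mark probe sets whose probes can also match other transcripts, and 1454602_s_at and 1454603_a_at share 1 source accession, so the 4 probe sets are not independent measurements. Their mean differed by -0.59 (adjusted p = 0.132 by limma among gene means). Probe sets of the same brightness decile as 1454602_s_at had a median difference of -0.14, and after quantile normalization 1454602_s_at differed by -0.53 and 1454603_a_at by -0.21.

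**Figure D2:**
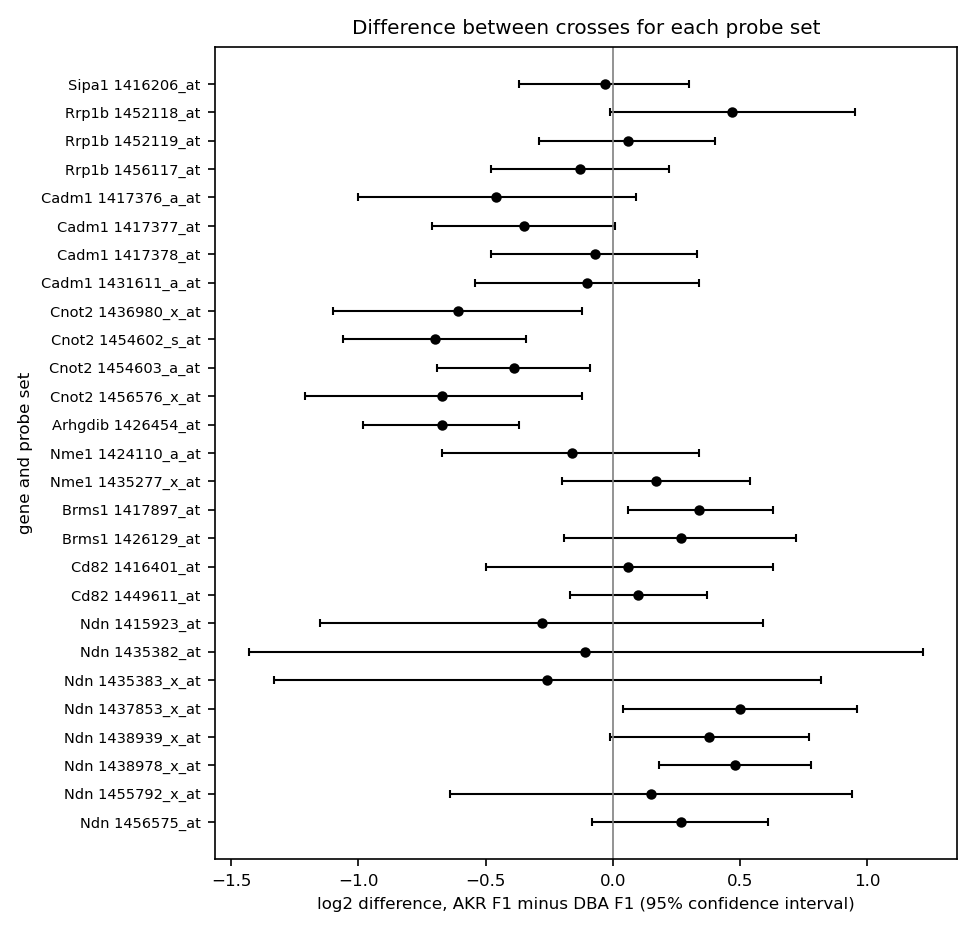
Log2 difference, AKR F1 minus DBA F1 (x axis), with its 95% confidence interval from limma, for each of the 27 probe sets (y axis); intervals are not adjusted for the number of probe sets. The 4 Cnot2 probe sets and Arhgdib lie wholly below 0, from -0.39 to -0.70. Brms1 1417897_at, Ndn 1437853_x_at and Ndn 1438978_x_at lie wholly above 0, from 0.34 to 0.50, while Sipa1 sits at -0.03.

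Arhgdib encodes a GDP-dissociation inhibitor, which holds small GTPases inactive in the cytosol. It is abundant in blood cells and is known as a metastasis suppressor in human bladder cancer. Its 1 probe set, 1426454_at, read 8.74, 8.46 and 8.57 in AKR and 9.22, 9.38 and 9.19 in DBA tumours. The highest AKR array lay well below the lowest DBA array. It averaged 8.59 ± 0.14 in AKR and 9.26 ± 0.10 in DBA tumours (SD, n = 3 each). The log2 difference was -0.67 (95% confidence interval -0.98 to -0.37, adjusted p = 0.0847 by limma), a 1.59-fold higher signal in DBA. This was the smallest adjusted p of any member. Probe sets of the same brightness decile as Arhgdib had a median difference of -0.14, and after quantile normalization Arhgdib differed by -0.53. At an adjusted p under 0.10, Arhgdib and the Cnot2 probe set 1454602_s_at were the 2 of 27 that passed, against 3.58% of all probe sets.

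Because Arhgdib is a blood cell gene, leukocyte markers are given beside it. The mean of the 16 measured leukocyte markers was 8.10, 7.79 and 7.94 in AKR and 8.46, 7.80 and 8.24 in DBA tumours, and the crosses overlapped. The difference of the list was -0.23 (exact two-sided permutation p = 0.3, where 3 against 3 arrays cannot go below 0.1). Of its genes 11 lay lower in AKR and 5 higher, and 0 passed. Ptprc, or CD45, read 8.66, 6.69 and 8.75 in AKR and 9.83, 8.28 and 9.55 in DBA tumours. Its difference of -1.19 was the largest of the list, and the largest the other way was that of Cd3e, 0.48. DBA replicate 2 had the lowest leukocyte mean of its cross and the highest Arhgdib value. Among the AKR arrays the leukocyte mean and Arhgdib had the same order, highest on replicate 1 and lowest on replicate 2. In whole tumours, fewer cells of a type and less RNA per cell cannot be told apart. The part of leukocytes in the Arhgdib difference was not tested.

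The upstream sequences of Cnot2 and Arhgdib, the members with the largest differences, and of Sipa1, the modifier with almost none, are shown to set the genes side by side. Each is the 250 bases before the most upstream start that the RefSeq promoter table lists, in build GRCm38.p6 and on the gene's own strand. Capitals mark matches to any of 4 motifs searched on both strands.
Cnot2, chr10:116580537-116580786, minus strand: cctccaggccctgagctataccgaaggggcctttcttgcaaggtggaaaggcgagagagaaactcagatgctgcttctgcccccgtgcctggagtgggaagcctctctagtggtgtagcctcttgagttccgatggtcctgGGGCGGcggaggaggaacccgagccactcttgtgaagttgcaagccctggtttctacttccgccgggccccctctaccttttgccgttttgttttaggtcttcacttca
Arhgdib, chr6:136941900-136942149, minus strand: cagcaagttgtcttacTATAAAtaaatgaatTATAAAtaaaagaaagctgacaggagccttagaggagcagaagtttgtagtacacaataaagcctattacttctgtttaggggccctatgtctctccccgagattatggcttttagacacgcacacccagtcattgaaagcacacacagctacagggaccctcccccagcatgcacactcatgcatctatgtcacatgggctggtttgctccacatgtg
Sipa1, chr19:5663708-5663957, minus strand: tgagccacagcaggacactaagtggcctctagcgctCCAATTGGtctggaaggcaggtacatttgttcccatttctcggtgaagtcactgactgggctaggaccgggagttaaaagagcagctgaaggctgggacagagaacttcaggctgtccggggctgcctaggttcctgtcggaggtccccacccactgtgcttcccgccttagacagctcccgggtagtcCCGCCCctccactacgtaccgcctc

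Among 27025 such windows, one per gene, the GC box GGGCGG was present in 33.0%, the CCAAT box CCAAT in 34.5% and the TATA box TATAAA in 13.0%. The E-box CACGTG was present in 6.04%. Counted from -1 at the last base before the start, Cnot2 held 1 GC box at -109 to -104. Sipa1 held 1 GC box at -25 to -20 on the other strand and an overlapping pair of CCAAT boxes on opposite strands between -214 and -207. Arhgdib held 2 matches to TATAAA, at -234 to -229 and -219 to -214, far from the usual place of a TATA box. None of the 3 held the E-box letters. The GC content was 57.6% in Cnot2, 44.4% in Arhgdib and 59.2% in Sipa1, against a median of 52.0%. The matches are a description of the letters, and the array data do not show which of them are used.

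Nme1 encodes a nucleoside diphosphate kinase, known as nm23, which lowers the motility of several tumour cell types. It was among the brightest members, and its 2 probe sets had opposite signs. The probe set 1424110_a_at read 10.67, 10.22 and 10.30 in AKR and 10.76, 10.16 and 10.76 in DBA tumours, a difference of -0.16. The other, 1435277_x_at, averaged 9.93 ± 0.19 in AKR and 9.76 ± 0.19 in DBA tumours (SD, n = 3 each), a difference of 0.17. Without DBA replicate 2 the difference of 1424110_a_at was -0.36, and after quantile normalization it was 0.09, with 0.40 for 1435277_x_at. The crosses overlapped at both, with adjusted p of 0.608 and 0.459 by limma. Nme1 and its close relative Nme2 are similar in sequence, so probes of an _x_at probe set can read both.

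Brms1 encodes a subunit of the SIN3-HDAC corepressor, which removes acetyl groups from histones, and it suppresses metastasis of human breast cancer cells in mice. Both probe sets had higher means in AKR tumours. The probe set 1417897_at read 7.57, 7.63 and 7.40 in AKR and 7.26, 7.22 and 7.10 in DBA tumours, with no overlap. The log2 difference was 0.34 (95% confidence interval 0.06 to 0.63, adjusted p = 0.155 by limma). The other, 1426129_at, read 7.52, 8.07 and 7.38 in AKR and 7.43, 7.41 and 7.33 in DBA tumours, and its difference of 0.27 became 0.06 without AKR replicate 2. Probe sets of their brightness decile had a median difference of 0.12.

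Cd82 encodes the tetraspanin KAI1, a membrane organiser that limits integrin and growth factor receptor signalling. Its brightest probe set, 1416401_at, read 11.13, 10.27 and 11.10 in AKR and 10.79, 10.77 and 10.74 in DBA tumours. The 3 DBA values were almost equal and lay inside the AKR range, which AKR replicate 2 extended downward. The log2 difference was 0.06 (95% confidence interval -0.50 to 0.63). It was 0.35 without AKR replicate 2 and -0.08 without AKR replicate 1, and 0.32 both after quantile normalization and with array weights. The second probe set, 1449611_at, read 9.59, 9.70 and 9.54 in AKR and 9.58, 9.54 and 9.44 in DBA tumours, a difference of 0.10 (95% confidence interval -0.17 to 0.37, adjusted p = 0.564 by limma).

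Ndn encodes necdin, a MAGE family protein that binds E2F1 and p53 and restrains the cell cycle, and it is imprinted, with only the paternal copy expressed. It had 8 probe sets and was the dimmest member: 7 of them had at most 18.0% of all probe sets below them, and the brightest, 1437853_x_at, had 34.8% of all probe sets below it. The probe sets fell into different patterns. The probe set 1435382_at read 6.23, 4.77 and 6.03 in AKR and 6.77, 4.87 and 5.70 in DBA tumours. The probe set 1415923_at read 5.27, 4.77 and 5.35 in AKR and 6.21, 4.79 and 5.22 in DBA tumours. Both were highest on DBA replicate 1, as were 1435383_x_at at 6.85 and 1455792_x_at at 6.08 there.

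The differences of these 4 Ndn probe sets were -0.11 for 1435382_at, -0.28 for 1415923_at, -0.26 for 1435383_x_at and 0.15 for 1455792_x_at. Their intervals were the widest of all members, from -1.43 to 1.22 at 1435382_at. DBA replicate 1 was also the array on which skeletal muscle and adipocyte markers were highest. The adipocyte hormone gene Adipoq read 10.57 there and at most 7.13 elsewhere. Lep, another adipocyte marker, read 5.52 there and was highest on AKR replicate 2, at 5.98. The mean of the 9 measured fibroblast markers was 10.04, 9.09 and 10.02 in AKR and 10.13, 8.65 and 10.03 in DBA tumours. It was lowest in each cross on replicate 2, as these 4 Ndn probe sets were. Without DBA replicate 1 the difference of 1435382_at was 0.39, that of 1415923_at 0.12, that of 1435383_x_at 0.21 and that of 1455792_x_at 0.54. Without AKR replicate 2 that of 1435382_at was 0.35. The part of muscle, fat and fibroblasts in these values was not tested.

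The other 4 Ndn probe sets had higher means in AKR tumours, by 0.27 to 0.50. Of these, 1438939_x_at read 5.36, 4.92 and 5.34 in AKR and 4.99, 4.83 and 4.68 in DBA tumours, and 1456575_at differed by 0.27. The probe set 1438978_x_at read 5.35, 5.67 and 5.46 in AKR and 5.02, 4.99 and 5.03 in DBA tumours, with no overlap. Its log2 difference was 0.48 (adjusted p = 0.113 by limma). The brightest, 1437853_x_at, read 6.99, 7.22 and 6.86 in AKR and 6.89, 6.30 and 6.36 in DBA tumours, a difference of 0.50 (adjusted p = 0.175 by limma). Over all probe sets the median difference was 0.12 in the brightness decile of 1438939_x_at, 0.23 in that of 1438978_x_at and 1456575_at, and 0.20 in that of 1437853_x_at. The mean of the 8 Ndn probe sets differed by 0.14.

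**Figure D3:**
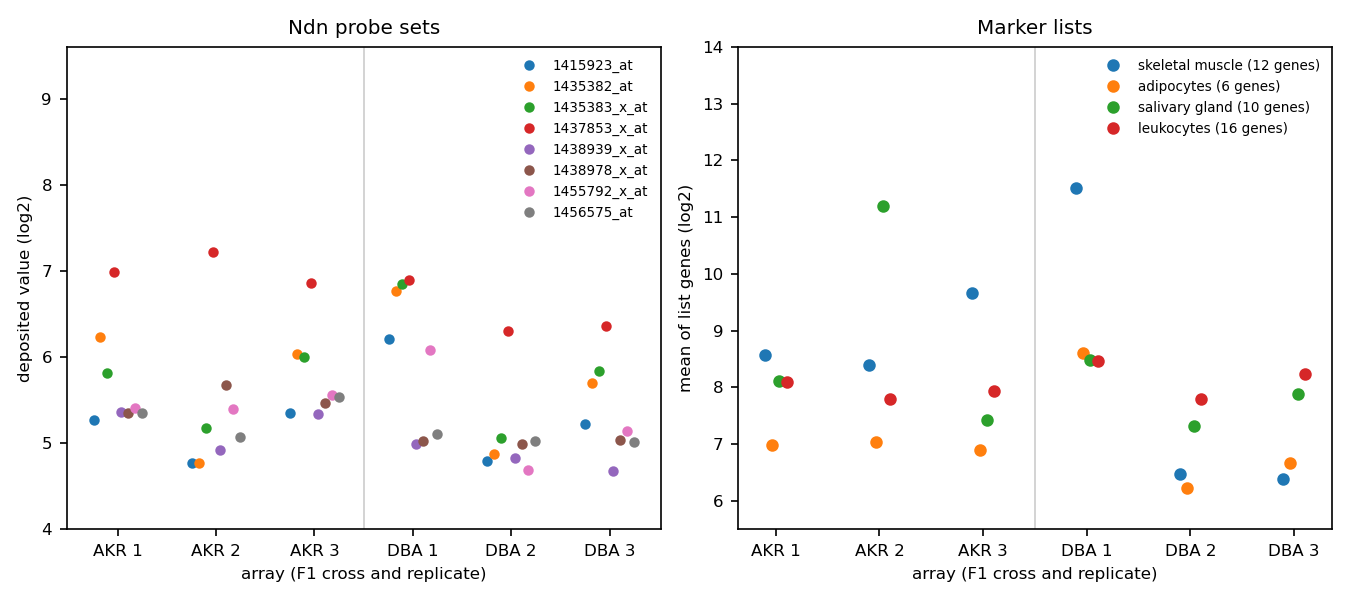
Left, deposited log2 values (y axis) of the 8 Ndn probe sets on the 6 arrays (x axis); right, the mean log2 value of the measured genes of 4 marker lists on the same arrays. On DBA replicate 1, 4 of the Ndn probe sets read from 6.08 to 6.85, and the muscle and adipocyte lists are highest at 11.51 and 8.61.

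Partners of the members were examined as 10 lists with 172 measured genes, each gene at its brightest probe set. None of the 172 passed an adjusted p of 0.05 by limma, against 0.0565% of all genes. At an unadjusted p under 0.05 there were 41 of 172, against 25.2% of all genes. The 3 genes of smallest p are named for each list.

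For the RAP1 cycle, the target of SIPA1, 11 of 15 genes lay lower in AKR tumours (median -0.24, against 0.05 over all genes). Over all genes 45.2% lay lower in AKR tumours. Bright probe sets as a whole lay lower in AKR, and the brightness deciles of the RAP1 genes had a typical (median) difference of -0.07. The 3 with an unadjusted p under 0.05 were all lower: the exchange stimulator Rap1gds1 (-0.48), the RAP1 effector Krit1 (-0.48) and the exchange factor Rapgef6 (-0.40). Rap1gds1 read 9.30, 9.20 and 9.25 in AKR and 9.67, 9.86 and 9.66 in DBA tumours. Nucleolar and ribosome assembly genes, the surroundings of RRP1B, were split, with 12 of 27 lower and a median of 0.03. Their brightness deciles had a typical difference of -0.14. Ebna1bp2 (-0.52) and Nop58 (-0.42) lay lower in AKR and Rrp9 (0.44) higher.

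Nectin-like adhesion genes and partners of CADM1 had 10 of 14 higher in AKR tumours (median 0.14, where their brightness deciles had -0.07). Of the 14, 8 had an unadjusted p under 0.05 by limma, 5 higher and 3 lower in AKR, against 25.2% of all genes. Cadm4, a relative of Cadm1, read 8.43, 8.61 and 8.49 in AKR and 7.64, 8.15 and 7.76 in DBA tumours, a difference of 0.66 opposite in sign to those of Cadm1. The exchange factor Tiam1 (-0.86) and the membrane skeleton gene Epb41l2 (-0.55) lay lower. In the CCR4-NOT list 11 of 15 genes lay lower in AKR (median -0.23), as Cnot2 did. All 15 lay in deciles 7 to 10 of mean level, and their brightness deciles had a typical difference of -0.21, close to that of the list. Cnot3, which forms a module with CNOT2, went the other way at 10.57, 11.20 and 10.60 in AKR and 9.05, 10.09 and 9.11 in DBA tumours. That difference was 1.37 (SE 0.317, adjusted p = 0.1 by limma). Tnks1bp1 lay higher (0.44) and the deadenylation adaptor Btg2 lower (-0.80).

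The NME list had a median of 0.14 over 10 genes, where their brightness deciles had -0.11. In it, the kinase receptor partner Strap (-0.58) lay lower in AKR tumours, and Set (0.40) and the DNA repair gene Apex1 (0.42) higher. The SIN3-HDAC list had a median of -0.10 over 14 genes, where their brightness deciles had -0.14. Its deacetylase gene Hdac2 read 7.24, 6.96 and 7.01 in AKR and 7.61, 8.04 and 7.92 in DBA tumours, a difference of -0.78. The histone demethylase gene Kdm5a went the other way (0.89), and Ing2 differed by -0.36. Tetraspanins and partners had a median of -0.08 over 20 genes, where their brightness deciles had -0.21. Of these, Tspan13 (-0.70) and the integrin gene Itgb1 (-0.77) lay lower in AKR and the tetraspanin partner Ptgfrn (0.63) higher.

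Of MAGE family genes and imprinted neighbours of Ndn (13 genes, median -0.20, where their brightness deciles had 0.12), Maged1 (-0.70) and Magee1 (-0.58) lay lower in AKR tumours. Snrpn, an imprinted gene near Ndn on chromosome 7, lay higher, at 7.29, 8.44 and 7.44 in AKR and 7.03, 7.02 and 6.80 in DBA tumours, with the highest value on AKR replicate 2. Other metastasis suppressors had 16 of 23 lower in AKR (median -0.28, where their brightness deciles had -0.21). The actin-severing gene Gsn read 10.01, 9.38 and 9.66 in AKR and 10.99, 10.35 and 11.22 in DBA tumours, a difference of -1.17 (adjusted p = 0.0961 by limma). Tpm1, a tropomyosin, differed by -1.12 and the netrin receptor gene Dcc by 0.80. Expression of extracellular matrix genes has been linked to Sipa1 and Rrp1b in mouse mammary tumour cells. Of these genes, 11 of 21 lay lower (median -0.09, where their brightness deciles had -0.21). Only Postn (-0.96) had an unadjusted p under 0.05 among them, while Nid1 (-1.09) and Col5a2 (-0.86) did not.

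**Figure D4:**
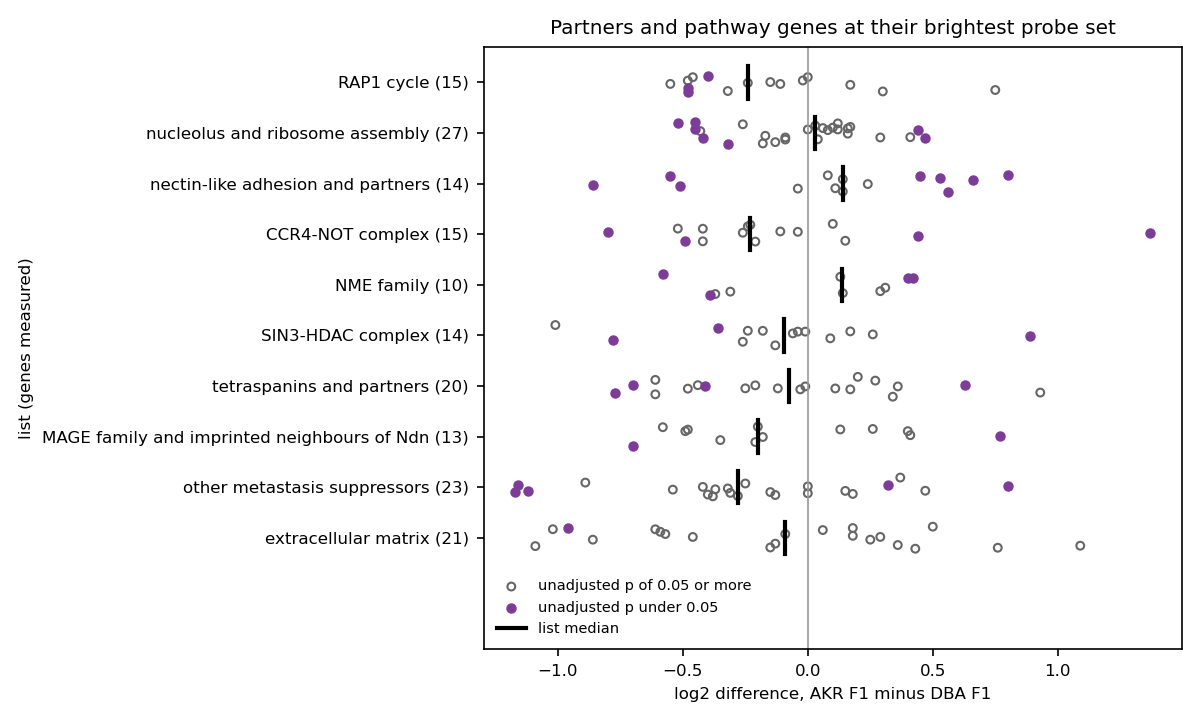
Log2 difference, AKR F1 minus DBA F1 (x axis), of each measured gene in 10 lists (y axis, with the number of genes), filled where the unadjusted limma p was under 0.05, with a bar at the list median. Medians lie between -0.28 and 0.14, and filled points stand on both sides of 0 in all lists but the RAP1 cycle and the extracellular matrix.

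The genes whose values most resembled each member over the 6 arrays were found by Pearson correlation with its brightest probe set, among brighter than median probe sets of other genes. With 6 arrays many probe sets reach a high r by having the same few high or low arrays, so these are descriptions only. For Sipa1 they were Sc5d (0.996) and Zxdc (0.995), both lowest on AKR replicate 2 like Sipa1. For Rrp1b, at 1452119_at only, they were Exosc4, a subunit of the RNA exosome (0.980), and Acp6 (0.971). For Cadm1 they were Car9, a carbonic anhydrase induced by low oxygen (0.994), and the receptor gene Fgfr1 (0.984), both highest on DBA replicate 2 and lowest on DBA replicate 1. For Cnot2 they were Nampt (0.997) and Strap (0.995), and for Arhgdib the mitochondrial carrier gene Slc25a4 (0.996) and Prepl (0.994).

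Cnot2 and Arhgdib had the most probe sets with an r over 0.9 among the 9 members. These were 933 of 10405 candidates for Cnot2 and 681 of 10407 for Arhgdib. The other members had from 34 (Rrp1b) to 401 (Brms1). At the Cnot2 and Arhgdib probe sets used, the crosses did not overlap, as at 39.2% of all probe sets. For Nme1 the most alike were U2af1l4 and Eef1akmt1 (0.992 each), for Brms1 Gp9 and Cuzd1 (0.999 each, all highest on AKR replicate 2) and for Cd82 Slc11a1 and Snx12 (0.997 each). For Ndn they were Sgce (0.991), itself an imprinted gene, and Elac2 (0.990). The Ndn probe set used, 1437853_x_at, was highest on AKR replicate 2, whereas 1435382_at and 1415923_at were lowest in AKR there. The likeness is therefore that of 1437853_x_at and not of all Ndn probe sets.

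**Figure D5:**
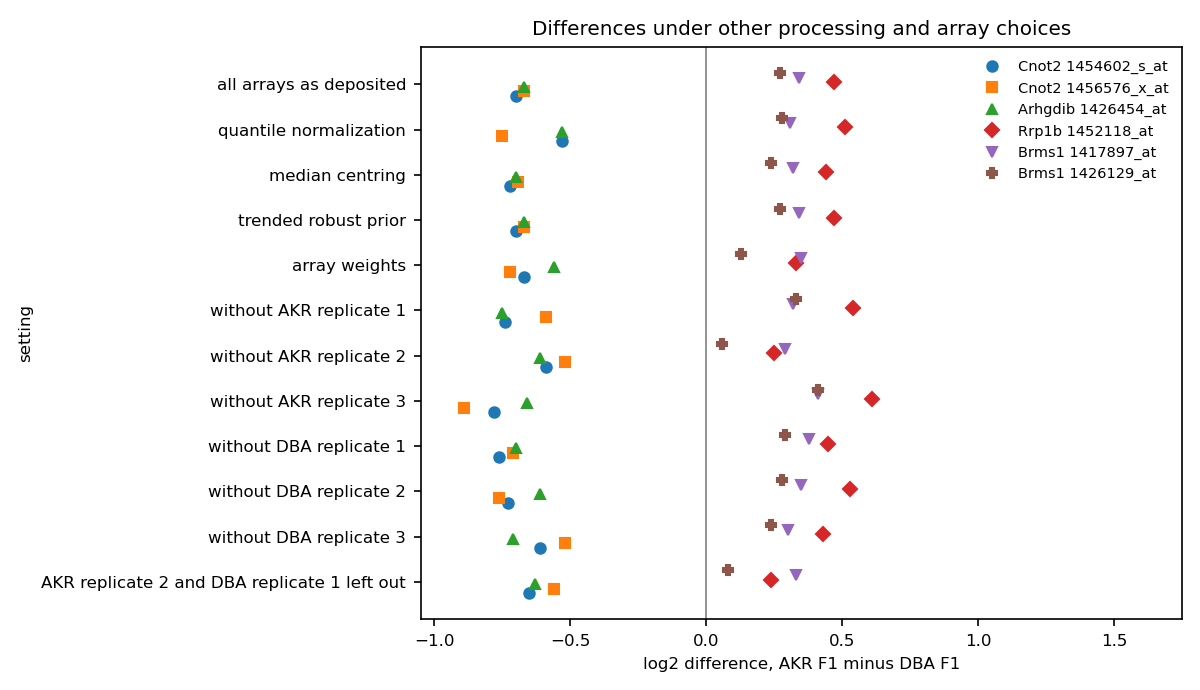
Log2 difference, AKR F1 minus DBA F1 (x axis), of 6 probe sets under each processing choice or with arrays left out (y axis). Cnot2 and Arhgdib stay below 0 in every setting shown, whereas Rrp1b 1452118_at is at 0.25 and Brms1 1426129_at at 0.06 without AKR replicate 2. The trended robust prior cannot move a difference.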

How the data were processed

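Total RNA of 6 snap-frozen mammary tumours was labelled with biotin and hybridised to Affymetrix arrays, per the labels' protocols. The deposited values are log2, read from their range. The submitters' processing notes name MAS5 and RMA, without version or role, and detection calls were not used here, so dim values can lie at background. Of 22690 probe sets, 64 controls were left out. Symbols came from the platform annotation, and chromosomes from the GRCm38.p6 gene table. Precision is limited by 3 arrays per cross.

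The crosses were tested against each other in R 4.3.3 with limma 3.58.1 (lmFit, eBayes, two-sided, Benjamini-Hochberg over 22626 probe sets, threshold 0.05). The fit was tested on simulated data. The changes planted there were larger than any member difference, so recovery of differences of the members' size was not tested. Differences are AKR minus DBA. Marker list means were compared by exact permutation. Figures were drawn with matplotlib 3.10.9. The members and lists were chosen with earlier results of these data known. A further list is not reported here. Named were all members, 3 genes per list by p and 2 per member by correlation. Adipoq, Lep, Ptprc and Cd3e were added after their values were seen. Promoters matched 7 of the 9 members. Alternatives were quantile normalization, median centring, a brightness filter, a trended robust prior, array weights (gene by gene, since the default estimate did not converge), an adjusted p of 0.10, probe set means and leaving out arrays.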

Additional observations from a re-analysis of the deposited data

How the results depend on the processing

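The count of member probe sets that passed was 0 in every setting run except array weights, where it was 5 (Cnot2 1454602_s_at and 1436980_x_at, Arhgdib, and Ndn 1438939_x_at and 1438978_x_at), and an adjusted p of 0.10, where it was 2. AKR replicate 2 had the lowest array weight, 0.192. Over all probe sets 22 passed, against 36 after quantile normalization, 102 among those brighter than the median, 3712 with array weights and 810 at an adjusted p of 0.10. With single arrays left out the count ran from 1 to 263: it was 263 when DBA replicate 1 was left out, 26 for DBA replicate 2 and 1 for DBA replicate 3, while for the AKR replicates it was 1, 2 and 11 in order. It was 657 without both AKR replicate 2 and DBA replicate 1, which was added after the values were seen. Of the 172 list genes 29 passed with array weights, 4 at an adjusted p of 0.10 and 0 to 1 with single arrays left out, the 1 being Gas1 (-1.48) without DBA replicate 1. Without both arrays 4 passed, Tiam1 (-0.94), Hdac2 (-0.85), Gas1 (-1.5) and Timp3 (-1.17). The causes were not tested.

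An adjusted p of 0.10, the trended robust prior and the brightness filter leave each difference as it was, so their values could not change sign. With those values counted, 17 of 27 member probe sets kept their sign in every setting. The other 10 changed it in 23 of 346 values, none of which passed. With quantile normalization these were Cadm1 1417378_at (0.08) and Nme1 1424110_a_at (0.09), with array weights Sipa1 (0.09) and Ndn 1435382_at (0.28), and with probe set means Nme1 (0.01). With single arrays left out they were Sipa1 (-0.10 to 0.09), Rrp1b 1452119_at (-0.05 to 0.18), Cadm1 1417378_at (-0.23 to 0.08), Cadm1 1431611_a_at (-0.23 to 0.04), Cd82 1416401_at (-0.08 to 0.35), Ndn 1415923_at (-0.59 to 0.12), Ndn 1435382_at (-0.56 to 0.39), Ndn 1435383_x_at (-0.69 to 0.21) and Ndn 1455792_x_at (-0.15 to 0.54). Without both arrays they were Sipa1 (0.11), Rrp1b 1452119_at (-0.03), Nme1 1424110_a_at (0.03), Ndn 1415923_at (0.31), Ndn 1435382_at (0.84) and Ndn 1435383_x_at (0.45). No paired analysis was possible because the replicate numbers follow accession order and pair no samples. Dim probe sets, mainly those of Ndn, limit what can be read from low values.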
